A study of Mus musculus with 12 samples.

Results

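The genes described here are interferon beta (Ifnb1) and 7 genes of type I interferon signalling: the receptor chains Ifnar1 and Ifnar2, the receptor kinases Jak1 and Tyk2, the transcription factor Stat2, and the feedback inhibitors Socs1 and Usp18. They were chosen by symbol for their part in the pathway, with earlier results of these data known, and all 8 had a row in a gene count table of 38215 genes and passed the filter on low counts. The study used RAW264.7, an established mouse macrophage cell line of BALB/c origin, to ask how SF3a1, a subunit of the splicing factor SF3a, affects the response to bacterial lipopolysaccharide (LPS). Cells were transfected with a nontargeting control siRNA or with SF3a1 siRNA, and 24 hours later they either received 20 ng/ml LPS, for 4 hours, or no LPS. Polyadenylated RNA was sequenced in 12 libraries, 3 for each of 4 groups formed by the siRNA (control or SF3a1) and by the absence or presence of LPS. All groups share the transfection and come from 1 cell line.

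Macrophages that sense LPS through TLR4 make interferon beta, which is secreted and binds a receptor made of IFNAR1 and IFNAR2 on the same and on neighbouring cells. The receptor-bound kinases TYK2 and JAK1 then phosphorylate STAT proteins. A complex that holds STAT2 and IRF9 enters the nucleus and binds interferon-stimulated response elements (ISREs) in the promoters of antiviral genes. SOCS1 blocks the kinases and USP18 binds IFNAR2 and dampens the signal, so that both act as brakes that the pathway itself induces.

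The libraries held 12746019 to 41091887 reads on genes, and replicate 1, which was sequenced in 2 runs in every group, was the deepest library of each group. Levels are given on the counts-per-million scale (CPM), relative to the reads counted on genes after TMM scaling of the libraries. The knockdown target Sf3a1 had 173, 216 and 185 CPM in replicates 1, 2 and 3 of control siRNA without LPS and 149.9, 194 and 157 CPM of control siRNA with LPS. With SF3a1 siRNA it had 27.1, 27.5 and 32.1 CPM without LPS and 30.3, 26.7 and 45.02 CPM with LPS, so all 6 knockdown libraries lay below all 6 control libraries. The log2 fold change was −2.73 (SE 0.204, adjusted p = 1.14e-05) without LPS and −2.30 (SE 0.200, adjusted p = 1.47e-05) with LPS. Here and below, adjusted p-values come from the quasi-likelihood test of edgeR, adjusted by Benjamini-Hochberg over the 14983 genes tested, and a gene is called where this value does not exceed 0.1. By the study's methods, each transfection and exposure was done in 3 replicates, but whether these came from separate passages or days is not given in the sources used here, and the p-values measure the spread between these libraries.

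The libraries carried the markers of macrophages. All 8 macrophage markers were detected, with a summed level of 9423 to 14466 CPM per library and with Lyz2, the lysozyme of myeloid cells, the most abundant. The summed level was at most 0.362 CPM in any library for the T cell, B cell, fibroblast and epithelial lists and at most 1.33 CPM for the neutrophil list, and the T cell gene Cd8a was at 0 in every library. The list for plasmacytoid dendritic cells, the specialised interferon producers of blood and lymphoid tissue, reached 122 to 818 CPM, nearly all of it from Bst2, which is also an interferon target, and Tcf4. Mean Bst2 was 93.2 and 698 CPM without and with LPS under control siRNA and 97.2 and 227 CPM under SF3a1 siRNA. Mean Tcf4 was 76.01 and 73.9 CPM under control siRNA and 99.8 and 71.2 CPM under SF3a1 siRNA, where it was above Bst2 without LPS. Siglech, a defining marker of these cells, fell with LPS under control siRNA (log2 −3.00, adjusted p = 0.000587). Reads outside annotated genes took a share of 17.8 to 19.8% in the control libraries and of 18.2 to 27.2% in the knockdown libraries, and the part of this difference in the results below was not tested.

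With control siRNA, LPS raised 5 of the 8 genes (Ifnb1, Tyk2, Stat2, Socs1 and Usp18) and lowered Ifnar2. Of all genes tested, 32.1% were called in this comparison, 13.8% as higher and 18.3% as lower. SF3a1 siRNA without LPS raised Jak1 and lowered Ifnar2, Tyk2 and Stat2, where 33.8% of all genes were called, 13.7% as higher and 20.1% as lower. SF3a1 siRNA with LPS lowered Ifnb1, Tyk2, Stat2, Socs1 and Usp18 and raised Jak1, against a background of 38.8% of genes called, 18.4% as higher and 20.4% as lower. With SF3a1 siRNA, LPS raised Ifnb1, Stat2, Socs1 and Usp18, where 10.7% of all genes were called, 6.60% as higher and 4.06% as lower. Ifnar1 was not called in any of these comparisons.

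Groups whose 3 libraries do not overlap are common in this series and are read against that background. In the LPS response with control siRNA, 5 genes had nonoverlapping higher levels against 17.2% of all genes, and 1 had nonoverlapping lower levels against 23.0%. For SF3a1 siRNA without LPS, Ifnar2 and Stat2 were lower without overlap (25.4% of all genes) and Jak1 was higher (20.2%). For SF3a1 siRNA with LPS, Tyk2, Stat2, Socs1 and Usp18 were lower without overlap (21.1%) and Jak1 was higher (18.0%). In the LPS response with SF3a1 siRNA, Ifnb1, Ifnar1, Stat2, Socs1 and Usp18 were higher without overlap (13.3%) and 0 were lower (11.5%). The comparisons share libraries: the effect of LPS with control siRNA and that of SF3a1 siRNA without LPS use the same unstimulated controls, and the effect of SF3a1 siRNA with LPS uses the same stimulated controls.

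**Figure D1:**
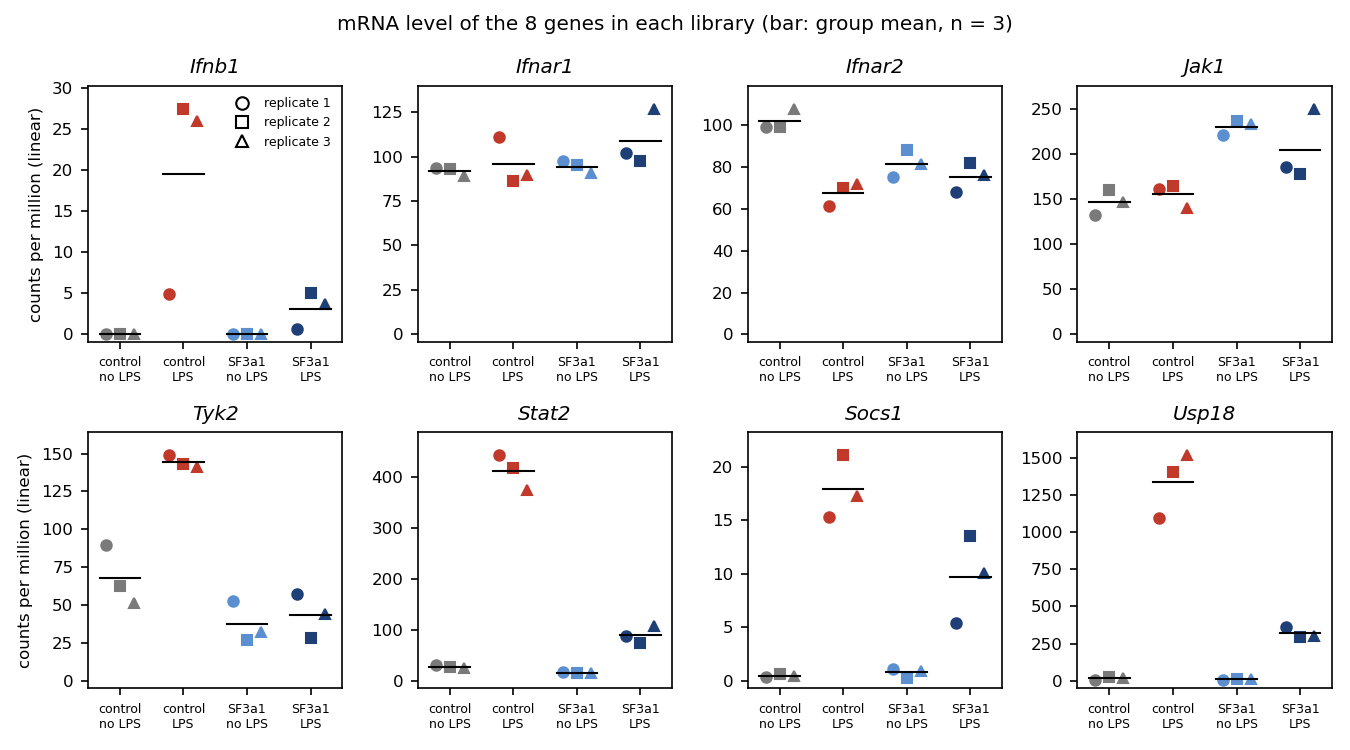
Level of each of the 8 genes in CPM (linear axis from 0) in each of the 12 libraries, with circles, squares and triangles for replicates 1, 2 and 3 and a bar at the mean of each group of 3. Ifnb1, Stat2, Socs1 and Usp18 rise with LPS under both siRNAs and have a lower mean with SF3a1 siRNA and LPS, Ifnar1 stays between 86.4 and 127 CPM, and Jak1 is highest in the 2 SF3a1 groups.

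The ligand Ifnb1 lies at chr4:88522025-88522774 (mm10, minus strand) and is a gene without introns. It was close to absent before LPS. Control siRNA libraries without LPS held 1, 1 and 0 reads in replicates 1, 2 and 3, and the 3 SF3a1 siRNA libraries without LPS held 0. A group total of 0 allows up to 3 reads over the group by counting error. In a single library of SF3a1 siRNA without LPS, 3 reads correspond to 0.109 to 0.223 CPM, so the limit on the group mean is lower. After LPS, the control siRNA libraries held 187, 346 and 464 reads, or 4.92, 27.5 and 26.01 CPM. SF3a1 siRNA libraries with LPS held 21, 83 and 76 reads, or 0.636, 5.01 and 3.66 CPM.

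Every LPS library was above every library without LPS under both siRNAs. Replicate 1 was the lowest of the 3 in both LPS groups, and because of it the 2 LPS groups overlapped: 5.01 CPM in replicate 2 with SF3a1 siRNA was just above 4.92 CPM in replicate 1 with control siRNA. Within each replicate number the SF3a1 level was far lower, at 12.9, 18.2 and 14.1% of its control.

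The rise with control siRNA was from 2 to 997 reads over the group, a ratio of 652 after scaling for depth with a 95% counting interval of 180.0 to 5392. The size of this ratio is uncertain, since it rests on 2 reads before LPS and the interval covers counting error only. The rise was called by edgeR's test of the group means, which is not a test of this ratio (adjusted p = 0.000184). With SF3a1 siRNA the rise was from 0 to 180 reads, at least 50.2-fold against 3 reads over the group, and edgeR's test called it (adjusted p = 0.00793). SF3a1 siRNA with LPS lowered Ifnb1, with a log2 fold change of −2.67 (SE 0.736, adjusted p = 0.0186), to 15.7% of the control level. The ratio of summed reads, 0.176 with a counting interval of 0.149 to 0.206, covers counting error only. No fold change of Ifnb1 without LPS and no difference between its LPS responses is given, since both would rest on 2 reads and 0 reads. In bulk RNA, fewer cells that express Ifnb1 and less Ifnb1 RNA per cell cannot be told apart.

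The promoter of Ifnb1 is a standard example of an enhancer on which IRF, NF-κB and AP-1 family factors assemble. The RefSeq promoter table (GRCm38.p6) gives 250 bases before and 50 bases after each start, and 7 of the 8 genes, all but Usp18, have an entry. All distances are counted from this RefSeq start. It is not always the start implied by the gene position given in this text, and it differs for Ifnb1 and Stat2. Within the Ifnb1 window, the stretch from 141 to 52 bases before the start lies at chr4:88522846-88522935 on the minus strand. It is shown because it holds both matches to a κB-like motif and the nearer of 2 matches to a TATA motif. It is printed 5′ to 3′ on the strand of the gene. The capitals mark, in order, a κB-like match on the strand of the gene, a κB-like match on the opposite strand, and TATAAA.
Ifnb1: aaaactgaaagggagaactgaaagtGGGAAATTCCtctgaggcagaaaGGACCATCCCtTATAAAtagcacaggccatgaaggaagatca

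The κB-like motif searched on both strands was GGGA, any 4 bases and CC, which 20.7% of 32851 promoters of this length hold. The 2 matches of Ifnb1 lie 116 to 107 and 93 to 84 bases before the start. TATAAA, found in 13.6% of promoters, occurred 82 to 77 bases before the start and once more 210 to 205 bases before it. The AP-1 letters TGANTCA (7.81% of promoters) and the ISRE core, GAAA, any 2 bases and GAAA again (3.44%), had no match in the Ifnb1 window, which says only that these letters are not there. Tyk2 held 1 κB-like match 30 to 21 bases before its start, and Ifnar1, Ifnar2 and Jak1 held no match to any of the 4 motifs. A match is a description of the letters and does not show a binding site.

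No other interferon ligand with a row in the table approached Ifnb1 in counted reads. Of 20 listed genes (13 interferon alpha genes, Ifnab, Ifne, Ifnk, Ifnz, the interferon gamma gene Ifng, and the interferon lambda genes Ifnl2 and Ifnl3), 16 had a row in the table and 0 passed the filter on low counts. Among these, 12 had 0 reads in all 12 libraries. Ifna13 had 2 reads over the control siRNA group with LPS, Ifna4 had 1 read over the SF3a1 siRNA group with LPS, Ifnl3 had 1 read over the control siRNA group with LPS, and Ifng had 1 read in each group. Interferon alpha genes are near-identical copies, and since only uniquely mapping reads were counted, reads from them could be lost, so their counts are uncertain.

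The receptor chain Ifnar1 (chr16:91485238-91507441, plus strand) had 93.6, 92.9 and 89.3 CPM with control siRNA without LPS and 111, 86.4 and 89.5 CPM with LPS. With SF3a1 siRNA it had 97.3, 95.1 and 90.8 CPM without LPS and 102, 97.7 and 127 CPM with LPS. Replicate 3 of SF3a1 siRNA with LPS was the highest, and the libraries of that group lay just above those without LPS (97.7 against 97.3 CPM at the nearest). The log2 fold change was 0.06 for LPS with control siRNA (SE 0.141, adjusted p = 0.826), 0.04 for SF3a1 siRNA without LPS (SE 0.141, adjusted p = 0.884), 0.19 for SF3a1 siRNA with LPS (SE 0.141, adjusted p = 0.354) and 0.21 for LPS with SF3a1 siRNA (SE 0.141, adjusted p = 0.506). For SF3a1 siRNA with LPS it was called in 1 of 17 alternatives, without replicate number 1 in every group (0.36, adjusted p = 0.0858), and was 0.06 without replicate 3 of the knockdown, with an adjusted p from 0.0858 to 0.810.

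Ifnar2, the chain with the long cytoplasmic tail that docks JAK1 and STAT2, lies on the same chromosome at chr16:91372783-91405589 (plus strand). It had 99.4, 99.4 and 108 CPM with control siRNA without LPS and 61.2, 70.1 and 71.9 CPM with LPS. In the SF3a1 siRNA libraries it had 75.4, 88.3 and 81.3 CPM without LPS and 67.9, 81.98 and 76.1 CPM with LPS. Unstimulated controls were the highest of the 4 groups without overlap, and SF3a1 siRNA with LPS overlapped both of the other groups. LPS with control siRNA lowered Ifnar2, with a log2 fold change of −0.60 (SE 0.129, adjusted p = 0.00391).

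SF3a1 siRNA without LPS lowered Ifnar2 by a smaller step, −0.32 (SE 0.128, adjusted p = 0.0808), and this call was not firm: it was kept in 7 of 17 alternatives, with an adjusted p from 0.0237 to 0.412. With LPS the difference was 0.15 (adjusted p = 0.410), and the LPS response with SF3a1 siRNA was −0.12 (adjusted p = 0.737). The gene model Gm21970 overlaps Ifnar2 and extends into the neighbouring gene Il10rb, so reads in the parts it shares with either gene cannot be assigned with certainty.

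The kinase Jak1 (chr4:101152367-101265282, minus strand), which is bound to IFNAR2 and to several other cytokine receptors, had 133, 161 and 147 CPM with control siRNA without LPS and 162, 165 and 140.5 CPM with LPS. With SF3a1 siRNA it had 222, 237 and 234 CPM without LPS and 186, 178 and 251 CPM with LPS. All 6 SF3a1 libraries were above all 6 control libraries. Without LPS the log2 fold change was 0.65 (SE 0.150, adjusted p = 0.00659). With LPS it was 0.39 (SE 0.150, adjusted p = 0.0641), a call kept in 14 of 17 alternatives and lost with no filter on low counts and without replicate 3 of either LPS group, with an adjusted p from 0.0323 to 0.271. LPS left Jak1 at 0.08 with control siRNA (adjusted p = 0.749).

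Tyk2 (chr9:21104068-21131243, minus strand), the kinase bound to IFNAR1, moved the other way. It had 89.97, 62.5 and 51.7 CPM with control siRNA without LPS and 149, 143 and 141 CPM with LPS. In the SF3a1 siRNA libraries it had 52.5, 26.96 and 32.5 CPM without LPS and 57.4, 28.5 and 44.1 CPM with LPS. Stimulated controls were above every other library, while the groups with SF3a1 siRNA overlapped each other and the lowest unstimulated control.

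LPS with control siRNA raised Tyk2 by 1.08 on the log2 scale (SE 0.289, adjusted p = 0.0139), and SF3a1 siRNA with LPS lowered it, with a log2 fold change of −1.73 (SE 0.294, adjusted p = 0.000856). SF3a1 siRNA without LPS lowered it, with a log2 fold change of −0.86 (SE 0.289, adjusted p = 0.0432), lower in each of the 3 replicate numbers, a call kept in 14 of 17 alternatives. It was lost without replicate 1 of the unstimulated controls, which moved the log2 fold change to −0.51, and without replicate 2 or 3 of SF3a1 siRNA without LPS, with an adjusted p from 0.000469 to 0.238 over the alternatives. With SF3a1 siRNA the LPS response of Tyk2 was 0.21 (adjusted p = 0.805). The kinases of the receptor had opposite signs under SF3a1 siRNA, with Jak1 higher and Tyk2 lower both without and with LPS.

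Stat2 (chr10:128270559-128292849, plus strand), the transcription factor that is specific to type I and type III interferon receptors, had 30.2, 26.3 and 25.8 CPM with control siRNA without LPS and 442, 417 and 373 CPM with LPS. With SF3a1 siRNA it had 16.5, 15.1 and 15.7 CPM without LPS and 88.2, 73.7 and 107 CPM with LPS. None of the 4 groups overlapped another.

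LPS raised Stat2 14.9-fold with control siRNA (log2 3.90, SE 0.166, adjusted p = 1.12e-08) and 5.67-fold with SF3a1 siRNA (log2 2.50, SE 0.158, adjusted p = 9.25e-07). SF3a1 siRNA lowered it, with a log2 fold change of −0.80 without LPS (SE 0.152, adjusted p = 0.00209) and of −2.20 with LPS (SE 0.154, adjusted p = 5.19e-06), which left 21.8% of the stimulated control. The LPS responses differed by −1.40 on the log2 scale (SE 0.212, adjusted p = 0.00650). Stat2 was the only one of the 8 genes whose interaction was called, where 3.47% of all genes were called (1.54% as higher and 1.94% as lower), and the call held in all 17 alternatives (adjusted p from 5.33e-07 to 0.0241).

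With a block for the replicate number, the interaction was called for 4 of the 8 genes, in a fit that called 11.7% of all genes (6.54% as higher and 5.18% as lower). Besides Stat2, these were Tyk2 (−0.91, adjusted p = 0.0501), Socs1 (−1.78, adjusted p = 0.0910) and Ifnar2 (0.48, adjusted p = 0.0701). Their adjusted p-values ranged from 0.0501 to 0.646 for Tyk2, from 0.0554 to 0.666 for Socs1 and from 0.0701 to 0.641 for Ifnar2 over the alternatives. Usp18 (−1.28, adjusted p = 0.358) was not called with the block (adjusted p = 0.114), but was called with no filter on low counts (−1.26, adjusted p = 0.00458) and without replicate number 1 in every group (−1.39), with an adjusted p from 0.00458 to 0.650.

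Socs1 (chr16:10782240-10785536, minus strand), the inhibitor that blocks the JAK kinases, had 0.344, 0.670 and 0.468 CPM with control siRNA without LPS and 15.3, 21.1 and 17.3 CPM with LPS. The SF3a1 siRNA libraries had 1.13, 0.279 and 0.967 CPM without LPS and 5.39, 13.5 and 10.1 CPM with LPS. The unstimulated groups overlapped each other and the stimulated groups did not. LPS raised Socs1 by 5.21 on the log2 scale with control siRNA (SE 0.479, adjusted p = 5.17e-06). With SF3a1 siRNA, LPS raised it by 3.57 (adjusted p = 0.000251), with a range of 3.18 to 4.32 over the 17 alternatives. SF3a1 siRNA with LPS lowered it, with a log2 fold change of −0.90 (SE 0.382, adjusted p = 0.0946), a call kept in 9 of 17 alternatives with an adjusted p from 0.0235 to 0.270. Without LPS, where the group totals were 41 and 49 reads, the difference was 0.75 (adjusted p = 0.314). It was called in 1 of 17 alternatives, without replicate 2 of the knockdown (1.15, adjusted p = 0.0948), and was 0.31 without replicate 1 of the knockdown and 0.04 without replicate number 1 in every group.

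Usp18 (chr6:121245906-121270917, plus strand), the protease that removes ISG15 from proteins and binds IFNAR2, had 6.37, 27.8 and 18.4 CPM with control siRNA without LPS and 1098, 1403 and 1518 CPM with LPS. The SF3a1 siRNA libraries had 6.12, 13.5 and 11.1 CPM without LPS and 365, 293 and 304 CPM with LPS. Replicate 1 was the lowest of both unstimulated groups, which overlapped, and the stimulated groups did not overlap.

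LPS raised Usp18 76.9-fold with control siRNA (log2 6.27, adjusted p = 1.49e-06) and 31.6-fold with SF3a1 siRNA (log2 4.98, SE 0.475, adjusted p = 2.25e-05). SF3a1 siRNA with LPS lowered it, with a log2 fold change of −2.06 (SE 0.412, adjusted p = 0.00239), to 23.95% of the stimulated control. Without LPS the difference was −0.78 (adjusted p = 0.198), and it was called in 3 of 17 alternatives (adjusted p from 0.00494 to 0.791). It ranged from −1.08 without replicate 1 to −0.19 without replicate 2 of the unstimulated controls.

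The ISRE core letters, held by 3.44% of promoters, occurred in the windows of Stat2 and Socs1 and in those of no other of the 7 genes with an entry. The stretches are shown because they hold these letters. The Stat2 stretch runs from 247 to 188 bases before the start at chr10:128270251-128270310 (plus strand), and its capitals mark 1 match on the opposite strand, 222 to 213 bases before the start. The Socs1 stretch runs from 108 to 43 bases before the start at chr16:10785579-10785644 (minus strand), and its capitals mark 2 overlapping matches, at 83 to 74 and 77 to 68 bases. Both are printed 5′ to 3′ on the strand of the gene.
Stat2: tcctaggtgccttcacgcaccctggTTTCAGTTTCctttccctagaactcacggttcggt
Socs1: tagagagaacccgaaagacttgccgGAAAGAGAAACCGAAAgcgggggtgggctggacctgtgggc

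The pairs of the same replicate number show how even the effect of SF3a1 siRNA was. With LPS, Stat2 had 19.97, 17.7 and 28.6% of its control in replicates 1, 2 and 3, Usp18 had 33.3, 20.9 and 20.00%, and Tyk2 had 38.6, 19.9 and 31.3%. Socs1 had 35.1, 64.00 and 58.3%. Sf3a1 itself had 20.2, 13.7 and 28.7%, so the knockdown was weakest in replicate 3.

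**Figure D2:**
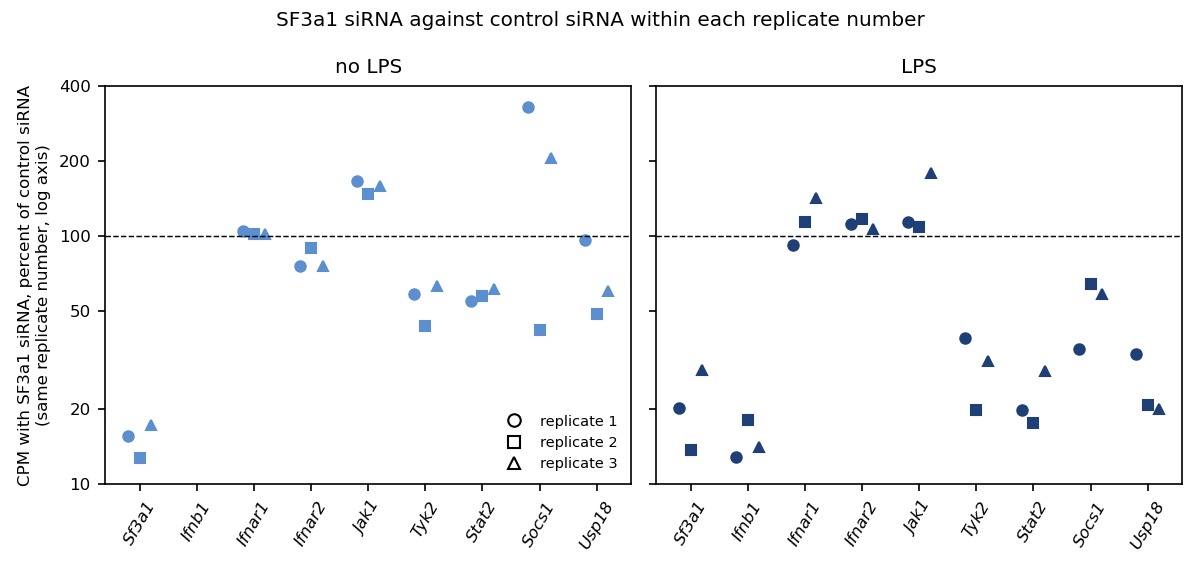
Level with SF3a1 siRNA as a percentage of the level with control siRNA in the library of the same replicate number (log axis, dashed line at 100%), without LPS on the left and with LPS on the right, with circles, squares and triangles for replicates 1, 2 and 3. With LPS, all 3 points of Ifnb1, Tyk2, Stat2, Socs1 and Usp18 lie below 100%, and the Ifnb1 points lie at 12.9, 18.2 and 14.1%. Ifnb1 without LPS is not drawn because its levels were at or near 0.

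Levels of different genes were compared as RPKM, the CPM per kilobase of exon. In control siRNA without LPS the order of mean RPKM was Ifnar2 (30.7 ± 1.49, SD, n = 3), Jak1 (20.4 ± 1.90), Ifnar1 (15.5 ± 0.386), Tyk2 (14.7 ± 4.28), Usp18 (9.89 ± 6.06), Stat2 (6.24 ± 0.549), Socs1 (0.177 ± 0.0591) and Ifnb1 (0.0300 ± 0.0298). Neighbours from Ifnar1 to Stat2 overlapped in this order and the others did not.

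After LPS with control siRNA, Usp18 came first at 756 ± 123 RPKM and Stat2 second at 93.4 ± 7.93 RPKM, each apart from the next. Tyk2, Ifnb1, Jak1, Ifnar2 and Ifnar1 followed between 31.2 and 16.1 RPKM, each overlapping its neighbour, and Socs1 came last at 6.43 ± 1.04 RPKM. With SF3a1 siRNA and LPS, Usp18 stayed first at 181 ± 22.02 RPKM, but Jak1 (28.4 ± 5.51 RPKM) stood second. Ifnar2, Stat2 and Ifnar1, between 22.6 and 18.3 RPKM, overlapped their neighbours, and Tyk2, Ifnb1 and Socs1 closed the order at 9.38, 4.14 and 3.47 RPKM.

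**Figure D3:**
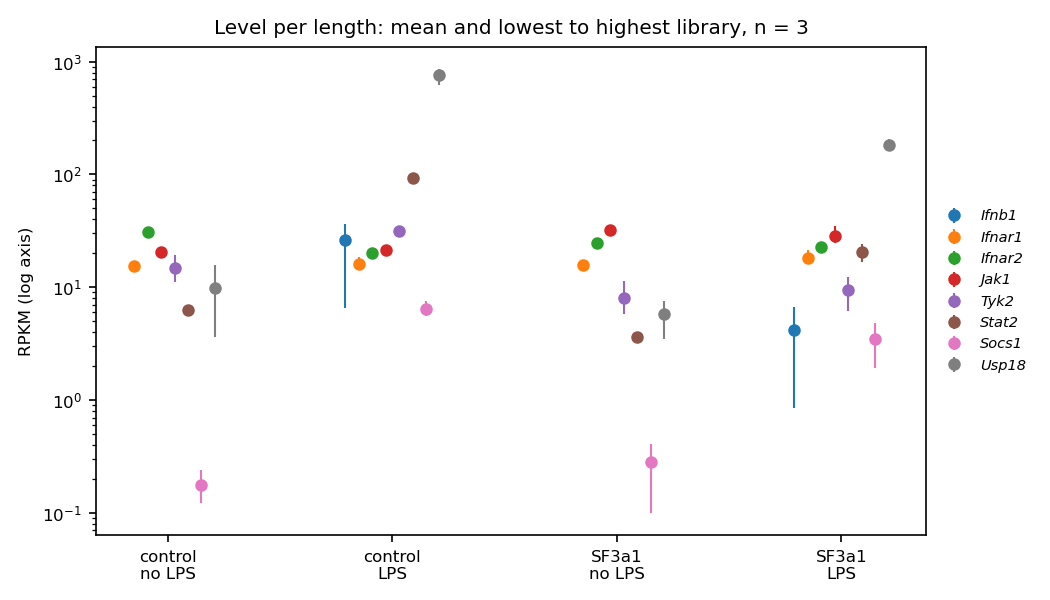
Level per length of the 8 genes in RPKM (log axis) in the 4 groups, with a point at the mean and a line from the lowest to the highest of 3 libraries. Usp18 is in the middle of the order without LPS and first with LPS, while the means of Ifnar1, Ifnar2 and Jak1 stay within 15.5 to 31.95 RPKM in every group. Ifnb1 without LPS is left out because at least 1 library of each group was at 0.

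Lists of further genes of the pathway were then examined, beginning with 20 other genes that act close to the receptor. Of these, 19 passed the filter, and the exception was Stat4. LPS with control siRNA raised 8 of the 19 and lowered 2, with a median log2 fold change of 0.37 against −0.02 over all genes tested, of which 32.1% were called. SF3a1 siRNA without LPS raised 2 and lowered 3, and with LPS it raised 0 and lowered 7, with a median of −0.13 against −0.04, where 33.8% and 38.8% of all genes were called. With SF3a1 siRNA, LPS raised 7 and lowered 0, where 10.7% of all genes were called. For SF3a1 siRNA without LPS, the 5 called genes became 3 without replicate 2 of the unstimulated controls and 3 without any 1 of the SF3a1 siRNA libraries without LPS. The first of these fits called 3932 of 15253 genes. Those without SF3a1 siRNA replicate 1, 2 or 3 called 4382 of 15268, 4008 of 15286 and 3881 of 15260, against 5069 of 14983 in the main fit. With the replicate block, 8 in place of 5 genes of this list were called in that comparison, where the block called 47.1% of all genes, and 12 in place of 7 for LPS with SF3a1 siRNA, where it called 20.8%.

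Irf9, the DNA-binding partner of STAT2, rose by 1.95 with LPS under control siRNA (adjusted p = 1.54e-06) and was lower with SF3a1 siRNA without LPS (log2 −0.43, adjusted p = 0.0558). With LPS the SF3a1 difference of Irf9 was −0.18 and was not called (adjusted p = 0.403), with 153 ± 2.40 CPM for control siRNA and 135 ± 7.97 CPM for SF3a1 siRNA.

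Stat3, which several cytokine receptors use, rose by 2.10 with LPS and was lowered with SF3a1 siRNA and LPS (log2 −1.63, adjusted p = 0.000226). Stat5a rose by 1.49 with LPS (adjusted p = 0.000892) and Stat5b and Stat6 were not called in any of these 3 comparisons. Of the other JAK kinases, Jak2 rose by 2.29 with LPS (adjusted p = 5.09e-05) and was lowered with SF3a1 siRNA and LPS (log2 −0.92, adjusted p = 0.0183), while Jak3 was not called.

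Among the inhibitors and modifiers, Socs3 rose by 5.65 with LPS under control siRNA. Cish rose from 4 to 1345 reads over the group, and no fold is given for this rise since it would rest on 4 reads. SF3a1 siRNA with LPS lowered both, with a log2 fold change of −1.02 for Socs3 (adjusted p = 0.00375) and −1.71 for Cish (adjusted p = 6.57e-05). Without LPS, SF3a1 siRNA raised Socs3 by 0.71 (adjusted p = 0.0323), so its sign differed with and without LPS. Isg15, the ubiquitin-like protein that USP18 removes, rose by 8.02 with LPS and was lowered with SF3a1 siRNA and LPS (log2 −1.57, adjusted p = 0.000249). The phosphatase gene Ptpn6, which encodes SHP-1, was lowered with SF3a1 siRNA, with log2 fold changes of −0.88 without LPS (adjusted p = 0.0283) and −0.91 with LPS (adjusted p = 0.0216). Ptpn1 was raised by 0.85 without LPS (adjusted p = 0.0175). Pias1 and Pias3, inhibitors of STAT binding to DNA, fell with LPS, with log2 fold changes of −0.41 (adjusted p = 0.0582) and −1.12 (adjusted p = 0.0301). Ptpn2, Ptpn11, Pias4 and Rack1 were not called in these 3 comparisons.

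A list of 30 genes that act between TLR4 and the Ifnb1 promoter was described next, and all 30 passed the filter. LPS with control siRNA raised 14 and lowered 1, with a median of 0.57, where 32.1% of all genes were called. SF3a1 siRNA raised 2 and lowered 6 without LPS, and raised 3 and lowered 10 with LPS, with a median of −0.25, so 8 and 13 of the 30 were called beside 33.8% and 38.8% of all genes. With SF3a1 siRNA, LPS raised 8 and lowered 0, where 10.7% of all genes were called. For SF3a1 siRNA without LPS, the 8 called genes became 5 without replicate 2 of the unstimulated controls and 4 without replicate 2 or replicate 3 of the knockdown. In that order, these fits called 3932 of 15253, 4008 of 15286 and 3881 of 15260 genes, against 5069 of 14983 in the main fit. With the replicate block, 16 in place of 8 were called in that comparison (47.1% of all genes) and 14 in place of 8 for LPS with SF3a1 siRNA (20.8% of all genes).

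The 4 genes of this list that SF3a1 siRNA lowered most with LPS encode transcription factors. Irf7, the amplifier of interferon transcription, had 27.8 ± 9.94 CPM without and 1179 ± 494 CPM with LPS under control siRNA, and 25.2 ± 5.66 and 217 ± 138 CPM under SF3a1 siRNA. Its log2 fold change for SF3a1 siRNA with LPS was −2.44 (adjusted p = 0.00114). Atf3, Irf1 and Irf8 were also lowered, with log2 fold changes of −2.43 (adjusted p = 0.000185), −2.42 (adjusted p = 0.000189) and −2.26 (adjusted p = 0.000309). Ikbke, a kinase that phosphorylates IRF3 and IRF7, had a log2 fold change of −1.96 (adjusted p = 0.000148) and Irf2 one of −0.80 (adjusted p = 0.00490).

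With control siRNA, LPS raised Irf7 by 5.41, Ikbke by 4.48, Irf1 by 3.39, Atf3 by 2.66, Nfkb1 by 2.48 and the LPS coreceptor Cd14 by 2.35. Irf3, the factor that TLR4 signalling activates for Ifnb1 transcription, did not pass the test for LPS (−0.13, adjusted p = 0.463). SF3a1 siRNA lowered Irf3, with a log2 fold change of −0.58 without LPS (adjusted p = 0.00262) and of −0.55 with LPS (adjusted p = 0.00298). Without LPS, SF3a1 siRNA also lowered Irf8 (−1.39), the TLR4 adaptor Ticam2 (−1.37), Atf3 (−1.35) and Ikbke (−0.72), and raised the chromatin protein gene Hmga1 by 0.69 (adjusted p = 0.0925).

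Of 45 interferon target genes, 43 passed the filter. LPS with control siRNA raised 43 of 43, with a median log2 fold change of 4.71, and LPS with SF3a1 siRNA raised 42, with a median of 3.39, the exception being the nucleotide phosphohydrolase gene Samhd1 (0.66, adjusted p = 0.213). SF3a1 siRNA with LPS lowered 41 and raised 0, with a median of −1.94 against −0.04 over all genes tested. Without LPS, SF3a1 siRNA raised 5 and lowered 9, with a median of −0.37 against −0.02, so 14 of 43 were called beside 33.8% of all genes. The shares of all genes called in the other comparisons were 32.1% for LPS with control siRNA, 10.7% for LPS with SF3a1 siRNA and 38.8% for SF3a1 siRNA with LPS. The 14 calls for SF3a1 siRNA without LPS became 7 without replicate 2 or replicate 3 of the unstimulated controls, 9 without replicate 3 of SF3a1 siRNA without LPS and 22 without replicate number 1 in every group. The shares of all genes called in these fits are not given here. The list was chosen with earlier results known, so these counts are a description.

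Within this list, the largest LPS responses with control siRNA were those of the antiviral genes Ifit1 (log2 9.34), Rsad2 (9.28) and Ifit3 (9.06), the GTPase genes Gbp3 (8.71) and Gbp2 (8.57), and Mx1 (8.17). Among the targets, Iigp1, a GTPase gene, was lowered most by SF3a1 siRNA with LPS (−3.97, adjusted p = 0.000272), from a mean of 15.02 to 0.929 CPM. It was followed by Gbp2 (−3.61), the chemokine gene Cxcl10 (−3.60), the exonuclease gene Isg20 (−3.47), Ifit2 (−3.36) and Mx1 (−3.13). Cxcl10 had 1901 ± 635 CPM with control siRNA and 157 ± 88.2 CPM with SF3a1 siRNA.

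Oas2 and Trim25 were the exceptions. Oas2, an oligoadenylate synthetase gene, had 375 ± 32.1 CPM with control siRNA and LPS and 404 ± 136 CPM with SF3a1 siRNA and LPS (log2 0.11, adjusted p = 0.787). Trim25, the ubiquitin ligase gene of the RIG-I pathway, had 1060 ± 118 and 1173 ± 334 CPM (log2 0.15, adjusted p = 0.627). Both were raised by SF3a1 siRNA without LPS, Oas2 by 1.20 (adjusted p = 0.00299) and Trim25 by 0.93 (adjusted p = 0.00359). In the same comparison Rtp4 (−1.72), Mx2 (−1.65), Ifit2 (−1.22), Isg20 (−1.07) and the immunoproteasome gene Psmb9 (−1.02) were lowered, of which Mx2 (adjusted p = 0.0988) and Isg20 (adjusted p = 0.0703) lay near the threshold with overlapping groups.

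**Figure D4:**
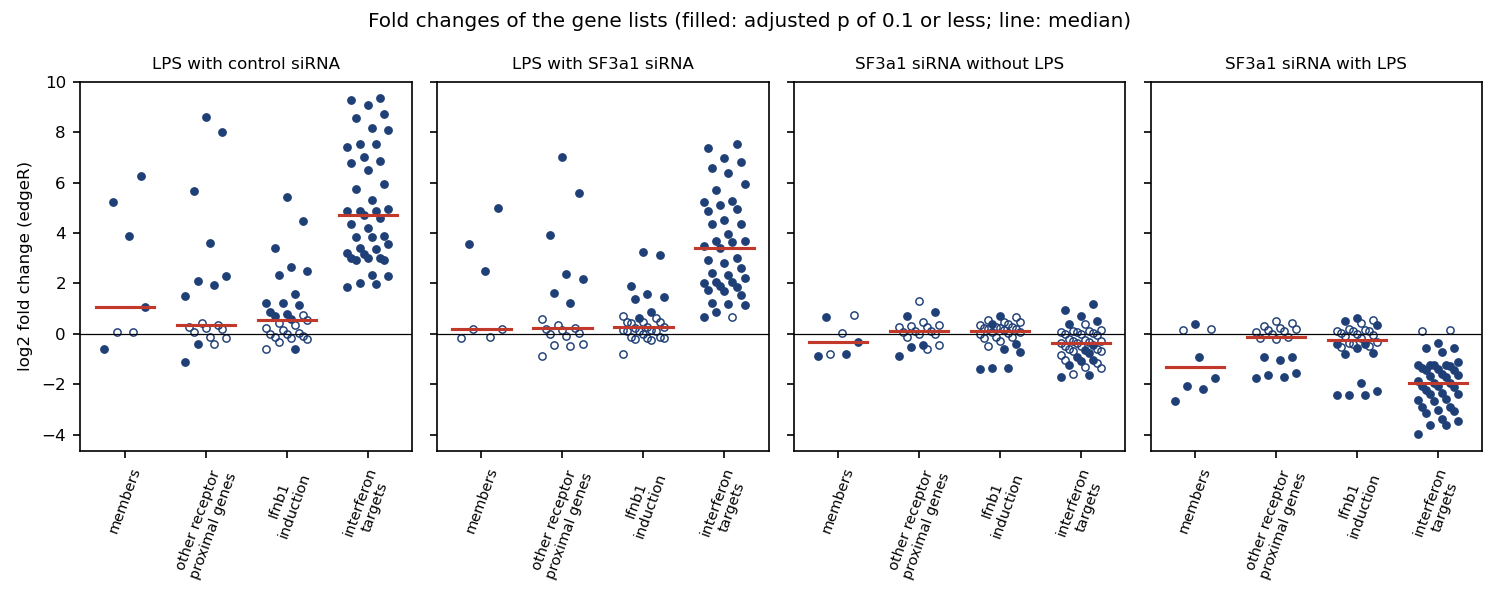
Log2 fold changes (edgeR) in 4 comparisons for the 8 genes, 19 other receptor proximal genes, 30 genes of Ifnb1 induction and 43 interferon targets, 1 point per gene, filled where the adjusted p is 0.1 or less, with a line at the median of the points drawn. Ifnb1 is drawn only for SF3a1 siRNA with LPS, so the medians of the members elsewhere are those of the other 7 genes. The interferon targets lie above 0 in both LPS panels (medians 4.71 and 3.39) and mostly below 0 for SF3a1 siRNA with LPS (median −1.94).

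For the 8 genes, the median log2 fold change was −1.31 for SF3a1 siRNA with LPS against −0.04 over all genes. For the other comparisons it is given over the 7 genes other than Ifnb1, and was 0.21 for LPS with SF3a1 siRNA, −0.32 for SF3a1 siRNA without LPS and, for LPS with control siRNA, the 1.08 of Tyk2, beside 0.01, −0.02 and −0.02 over all genes.

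As a description, the ISRE core letters were found in 16 of 35 interferon target promoters with an entry (45.7%), 3 of 17 receptor proximal promoters (17.6%) and 2 of 24 promoters of the induction list (8.33%), beside 3.44% of all promoters.

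Receptors of the other interferon types were measured alongside. Ifngr1 and Ifngr2 encode the interferon gamma receptor and Il10rb encodes a chain shared by the interferon lambda and interleukin 10 receptors, while Ifnlr1 did not pass the filter. In the presence of LPS, SF3a1 siRNA raised all 3 tested genes, Ifngr1 by 1.02 (adjusted p = 0.000662), Il10rb by 0.93 (adjusted p = 0.000630) and Ifngr2 by 0.78 (adjusted p = 0.000856), where 18.4% of all genes were called as higher. Without LPS it raised Ifngr2 by 0.94 (adjusted p = 0.000300) and Il10rb by 0.59 (adjusted p = 0.0109), where 13.7% of all genes were called as higher. LPS with control siRNA lowered Ifngr1, with a log2 fold change of −0.95 (adjusted p = 0.000912) and raised Ifngr2 by 0.61 (adjusted p = 0.00409). Il10rb lies beside Ifnar2 without overlapping it, and its counts carry the uncertainty of the part it shares with Gm21970.

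Exon usage was examined because SF3a1 acts in splicing. The 8 genes had 143 counting bins, the pieces into which overlapping annotated exons are divided, in exon counts of 11 libraries, and control siRNA with LPS had 2 libraries here. Of these bins 127 could be tested, and Ifnb1 with 1 bin and Socs1 with 2 bins had none. In 508 tests over 4 comparisons, edgeR's exon level test called 0 bins at an adjusted p of 0.1, while 8 had an unadjusted p under 0.05. With limma's diffSplice the counts were 0 and 9. Over all genes 0.626% of bins were called for SF3a1 siRNA without LPS, 0.492% for SF3a1 siRNA with LPS, 0.0801% for LPS with control siRNA and 0.0254% for LPS with SF3a1 siRNA.

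With the replicate block, 1 bin was called, bin 16 of Ifnar2 at chr16:91403710-91405366 (plus strand, 1657 nt), an exon of both coding transcripts that span it. It took 25.9, 21.98 and 20.9% of the Ifnar2 bin counts in control siRNA without LPS and 17.3, 18.2 and 20.8% in SF3a1 siRNA without LPS. Replicate 3 of the knockdown lay just under replicate 3 of the control. The log2 change of usage was −0.72 with the block (adjusted p = 0.0300), in a fit that called 1.38% of all bins. Without the block it was −0.71 (edgeR adjusted p = 1), and with the bins of Ifnar2 fitted apart from those of Il10rb and Gm21970, which the exon counts join with it in 1 unit, it was −0.28 (edgeR adjusted p = 1). The percentage in control siRNA with LPS was 22.04 and 20.5 in its 2 libraries, and 17.7, 15.9 and 19.5 in SF3a1 siRNA with LPS.

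The last bin of Ifnar2, bin 17 at chr16:91405367-91405589, had the smallest p without the block (edgeR adjusted p = 0.647) for SF3a1 siRNA without LPS, with a log2 change of −1.09 within the joined unit and of −0.66 with the Ifnar2 bins fitted apart (edgeR adjusted p = 1). It held 1.86 ± 0.428% of the Ifnar2 bin counts in the control and 1.17 ± 0.194% in the knockdown. The bins with the smallest p in the other genes all had an adjusted p of 1. For Ifnar1 this was bin 12 in SF3a1 siRNA with LPS (log2 change of usage 0.83) and for Jak1 bin 23, inside an annotated intron, in LPS with SF3a1 siRNA (−1.38). For Tyk2 it was bin 16 (−0.75) and for Stat2 bin 15 (−0.96), both in SF3a1 siRNA without LPS, and for Usp18 bin 10 in LPS with control siRNA (−0.70). For control siRNA with LPS, exon bins of replicates 1 and 2 were used.

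Genes with a pattern most like that of Ifnb1 were named by the Pearson correlation of log2(CPM + 0.5) over the 12 libraries, among 13226 genes whose mean reached 1 CPM. The points share libraries and depth and the value is a description. The 5 highest were Cd69 (0.987), an early activation antigen, Arhgef3 (0.987), Ch25h (0.985), which makes the antiviral sterol 25-hydroxycholesterol, Zfp811 (0.983) and Mtmr7 (0.980). Of the other 7 genes, Socs1 (0.933), Stat2 (0.921) and Usp18 (0.914) were closest, followed by Tyk2 (0.580), Ifnar1 (0.0716), Jak1 (−0.253) and Ifnar2 (−0.622).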

How the data were processed

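Gene counts and exon bin counts of 12 and 11 libraries were used as deposited; 3 libraries per group were grouped by their labels. The authors kept uniquely mapping Ion Proton reads aligned to mm10 with GSNAP and counted them per Ensembl gene with HTSeq and per exon bin with DEXSeq's script, in which a read counts in each bin it overlaps. Neither count was normalized. Reads outside genes were kept out of library sizes.

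Genes were fitted over all 12 libraries with edgeR 4.0.16 (R 4.3.3; filterByExpr, TMM, quasi-likelihood), and bins with diffSpliceDGE in place of the authors' DEXSeq, at a false discovery rate of 0.1. SE is the log2 fold change divided by the square root of F. Alternatives were relative log expression scaling, no filter, DESeq2 1.42.0, limma 3.58.1 (bins), a lower limit of 10 counts per bin, the replicate block, leaving out each library, and, added after the data were seen, leaving out replicate number 1 in every group. Samples of 1 replicate number deviated together, with correlations of deviations from group means of 0.144 to 0.659 (18 pairs, median 0.427). The 36 pairs of different numbers had −0.591 to 0.417 (median −0.360). Because deviations are taken from group means, positive values within numbers push those between numbers to be negative. Replicate number 1 was also the deepest library of each group and differed in its sequencing runs. Shared depth or run therefore cannot be told apart from a pairing of the samples. The main fit ignores the replicate number, which only the replicate block takes into account. Libraries of one group were further apart than counting noise (chi-square per degree of freedom 8.85 to 118). RPKM used merged exons of GENCODE in mm10, which also gave positions. The motifs were searched in RefSeq promoters. Intervals cover counting error only.

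On simulated counts drawn for the 38215 genes, 41% of 2-fold and 81% of 4-fold changes were recovered for LPS with control siRNA (8.96% of calls false). For SF3a1 siRNA the shares were 44 and 90% in the absence of LPS (8.84% false) and 37 and 81% in its presence (13.2% false). Each of these simulations changed 100 genes at each fold, a far smaller share than was called in the data. Libraries were drawn independently, without a shared deviation of 1 replicate number. These rates therefore need not hold for the fits of the data. For bins, tested for SF3a1 siRNA without LPS on 153624 bins, 56.5% of 4-fold changes were recovered and 31.7% of called bins lay in unchanged genes, so bin calls are less certain than their adjusted p.

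The members and lists were chosen with earlier results of these data known. Named were the 8 genes, Sf3a1, the receptor proximal genes other than 1 that is not reported here, up to 6 genes per list and comparison with the largest called change and a mean of at least 1 CPM, the 5 genes most like Ifnb1, and for each member the bin with the smallest p.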

Additional observations from a re-analysis of the deposited data

Results flagged for a closer look

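The LPS response differed between SF3a1 siRNA and control siRNA, by edgeR's test of the interaction at an adjusted p of 0.1 or less, for 1 of the 8 genes and for several genes of the lists. Stat2 differed by −1.40 on the log2 scale (adjusted p = 0.00650). Receptor proximal genes with a smaller response under SF3a1 siRNA included Stat3 (−1.50, adjusted p = 0.0290) and Socs3 (−1.74, adjusted p = 0.0163). Cish was also called, at −3.01, but the size of this difference is not interpreted. Its unstimulated groups held only 4 reads (control siRNA, mean 0.0443 CPM) and 7 reads (SF3a1 siRNA, mean 0.111 CPM). Of the 19 receptor proximal genes tested, 4 were called, all as lower, where 3.47% of all genes were called. Fits that left out 1 library gave 2 to 5 calls in this list. Over all genes, those fits called 273 to 711 for the interaction, against 520 in the main fit.

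In the induction list Irf7 (−2.30, adjusted p = 0.0743) and Irf1 (−1.94, adjusted p = 0.0460) had smaller responses, and Ticam2 (1.06, adjusted p = 0.0584) moved in the opposite sense, since LPS lowered it with control siRNA (−0.58, adjusted p = 0.0303) and its change was 0.47 with SF3a1 siRNA (adjusted p = 0.170). These were 3 of the 30 genes, where 3.47% of all genes were called, 1.54% as higher and 1.94% as lower. The 3 calls became 0 without replicate 3 of the unstimulated controls and 1 without replicate 1 or 2 of that group, replicate 2 or 3 of control siRNA with LPS, or any 1 library of SF3a1 siRNA without LPS. The fit with 0 calls here called 292 of 15235 genes and the fits with 1 call 273 to 433 genes, against 520 of 14983 in the main fit.

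Of the 43 interferon targets, 18 had a called interaction and all 18 were negative, where 3.47% of all genes were called, 1.94% as lower, with a median over the list of −1.47 against 0.04 over all genes. Leaving out 1 library gave 11 to 24 calls, with 11 without replicate 3 of control siRNA with LPS, and the replicate block gave 32, in a fit that called 11.7% of all genes. Over all genes, the fits without 1 library called 273 to 711, and 371 of 15243 without replicate 3 of control siRNA with LPS, against 520 of 14983 in the main fit. The largest differences were those of Gbp3 (−3.43), Tap1 (−2.72), Cxcl10 (−2.57), Isg20 (−2.40), Cmpk2 (−2.30) and Ifit2 (−2.14). Tap1 had the firmest value, with an adjusted p of 0.000397, and SF3a1 siRNA raised it by 0.51 without LPS (adjusted p = 0.0453) and lowered it (log2 −2.21) with LPS. Bst2, which is also in the list of plasmacytoid dendritic cell markers, differed by −1.68 (adjusted p = 0.0897). Of the other markers of that list, Siglech fell with LPS under control siRNA (−3.00, adjusted p = 0.000587) and Tcf4 was not called (−0.04, adjusted p = 0.918).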

How the results depend on the processing

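The members called were 6 for LPS with control siRNA and 4 for LPS with SF3a1 siRNA in every fit that left out 1 library. For SF3a1 siRNA with LPS the main count of 6 became 4 to 6 in those fits, and for SF3a1 siRNA without LPS the main count of 4 became 2 to 4, with 2 where replicate 3 of SF3a1 siRNA without LPS was left out. Over all genes, those fits called 4744 to 5993 genes with LPS (main fit 5818) and 3881 to 5627 without LPS (main fit 5069). The lowest number without LPS, 3881, came from the fit without replicate 3 of SF3a1 siRNA without LPS. The interaction was called for 1 member in each fit that left out 1 library, but for 3 with no filter on low counts, 4 with the replicate block and 3 without replicate number 1 in every group. For the fit without replicate number 1, the share of all genes called is not given here. The replicate block also called 1 member bin in place of 0 for SF3a1 siRNA without LPS and changed no other call of a member. In signs, 4 values that were not called reversed, 1 of them in 2 settings. For LPS with control siRNA, Ifnar1 (0.06) became −0.06 without control LPS replicate 1 (range −0.06 to 0.12) and −0.05 without replicate number 1, where Jak1 (0.08) became −0.01. For LPS with SF3a1 siRNA, Sf3a1 (0.24) became −0.02 without SF3a1 LPS replicate 3 (range −0.02 to 0.38) and Tyk2 (0.21) became −0.04 without SF3a1 LPS replicate 1 (range −0.04 to 0.55). The causes were not tested. With the block, 6571 in place of 4809 genes were called for LPS and 1756 in place of 520 for the interaction (DESeq2 966, no filter 930), and LPS with SF3a1 siRNA gave 3115 in place of 1598. At the exon level the block called 285 in place of 123 bins for LPS with control siRNA, 2113 in place of 961 for SF3a1 siRNA without LPS, 1793 in place of 756 with LPS and 105 in place of 39 for LPS with SF3a1 siRNA. Depth limits Ifnb1 before LPS, the other interferon ligands and unstimulated Socs1 (41 and 49 reads per group).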

Other observations

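The 8 macrophage markers are given by their mean levels and calls. Without LPS, SF3a1 siRNA raised 3 of the 8 and lowered 0, where 33.8% of all genes were called. These were the transcription factor gene Spi1, which encodes PU.1 (494 CPM with control siRNA and 744 CPM with SF3a1 siRNA), the Fc receptor gene Fcgr3 (11.2 and 27.5 CPM) and Lyz2 (5426 and 7522 CPM). With LPS, SF3a1 siRNA raised 3 and lowered 2, where 38.8% of all genes were called. Spi1 (847 and 1291 CPM), Fcgr3 (6.60 and 13.3 CPM) and the receptor gene Csf1r (1424 and 2290 CPM) were higher, and the leukocyte phosphatase gene Ptprc (241 and 151 CPM) and Adgre1, which encodes the antigen F4/80 (203 and 124 CPM), were lower. Itgam had 293 and 168 CPM with LPS and was not called (adjusted p = 0.155), and Cd68 (694 and 811 CPM) and Lyz2 (6307 and 7482 CPM) were not called either. The part of these levels in the results above was not tested.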
